A study of Homo sapiens with 6 samples.

Results

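The genes described are 10 members of the SOX family that act in neural lineages: SOX1, SOX2, SOX3, SOX4, SOX5, SOX6, SOX8, SOX9, SOX10 and SOX11. They were chosen by name, and the peaks assigned to each were those that overlapped its body or the 5 kb on either side, called its window here. They are 10 of the 20033 protein-coding genes on chromosomes 1 to 22, X and Y in the RefSeq gene table of GRCh38. The study mapped where MYT1L, a zinc-finger transcription factor of neurons, lies on chromatin. The assay was CUT&RUN: a nuclease tethered through an antibody releases the DNA next to the bound protein, and the released fragments are sequenced. MYT1L was targeted in 4 libraries, and 2 control libraries used nonspecific IgG. Both groups are labelled H1 WT, day 30 and passages p10 to p60, with no treatment named, and H1 is an established human embryonic stem cell line. The design text calls the cells cortical interneurons derived from stem cells, whereas the labels of the samples give embryonic stem cells. Peak lists measure no expression, so neither name could be checked against marker genes. Nothing in the labels says that the libraries came from separate cultures, so the spread between them may be technical.

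SOX proteins bind DNA through an HMG box, a domain that bends the double helix, and are sorted into groups by the similarity of that box. The B1 group (SOX1, SOX2, SOX3) keeps neural progenitors in an undifferentiated state. The C group (SOX4, SOX11) is switched on as progenitors become neurons and activates neuronal genes. The D group (SOX5, SOX6) lacks a transactivation domain and acts on neuron subtype, SOX6 in interneurons of the medial ganglionic eminence among others. The E group (SOX8, SOX9, SOX10) serves glial cells and the neural crest. MYT1L is known mainly as a repressor that keeps non-neuronal programmes off in neurons, and the MYT1 family recognises a short core, AAGTT.

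The libraries differed in depth, which the files do not state and which was estimated from the peaks. Relative to IgG replicate 2, IgG replicate 1 had 1.63 times the depth and the MYT1L libraries between 2.37 (replicate 2) and 6.31 times (replicate 1). The lists held 12310 to 30086 peaks with MYT1L and 976 to 998 with IgG.

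All 10 genes had a MYT1L peak in their window in at least 1 library, a property shared by 84.1% of all protein-coding genes. None had an IgG peak, which 4.16% of all genes had (1.61% in IgG replicate 1 and 2.90% in IgG replicate 2). The MYT1L peaks numbered 56 and formed 33 regions, a region being peaks of different libraries joined by an overlap of at least 1 bp. Of these regions, 19 were held by 1 library, 7 by 2, 6 by 3 and 1 by all 4. A region in at least 3 of the 4 MYT1L libraries and without an IgG peak is called reproducible here. There were 7 such regions, at 6 of the 10 genes: SOX1, SOX2, SOX5, SOX9 and SOX11 had 1 each and SOX6 had 2. Over all protein-coding genes, 48.0% had a reproducible region in the same window. Among genes under 10 kb this share was 30.9%, and 4 of the 7 SOX genes of that length had one (SOX1, SOX2, SOX9 and SOX11). Among genes of 400 kb and longer it was 73.1%, and both such members (SOX5 and SOX6) had one. With so few members, these shares do not set the SOX genes apart from other genes. The count also depended on weak peaks. With only peaks of a −log10 q of at least 5, the reproducible regions were 2, at SOX2 and SOX6. The share of all genes with one also fell, from 48.0% to 30.6%.

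By group, a reproducible region was found at 2 of 3 B1 genes, 1 of 2 C genes, 2 of 2 D genes and 1 of 3 E genes. SOX4 and SOX8 had a region in 2 libraries, and SOX3 and SOX10 only single-library peaks. A region in at least 2 libraries was thus present at 8 of the 10 genes, against 65.3% of all genes.

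The promoters of SOX1, SOX5 and SOX6 were the only ones of the 6 members in the RefSeq promoter table (GRCh38.p14) that a peak of at least 2 MYT1L libraries overlapped. The table gives 250 bases before and 50 after each start site. Their sequences are shown because they are the DNA under or beside the peaks, 5′ to 3′ on the strand of the gene, without bases that lie in a protein-coding gene. Capitals mark the 21 bases centred on each peak summit that fell inside the printed stretch.
SOX1, chr13:112066899-112067148, plus strand: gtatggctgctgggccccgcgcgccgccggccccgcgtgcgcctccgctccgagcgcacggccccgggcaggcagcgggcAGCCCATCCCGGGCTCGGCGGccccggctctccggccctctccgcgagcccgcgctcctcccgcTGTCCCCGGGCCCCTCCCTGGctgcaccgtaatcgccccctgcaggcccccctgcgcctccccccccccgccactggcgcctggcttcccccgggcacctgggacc
SOX5, chr12:24562651-24562741, minus strand: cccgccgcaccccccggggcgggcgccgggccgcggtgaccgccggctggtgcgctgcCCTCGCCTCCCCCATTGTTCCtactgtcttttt
SOX6, chr11:16738478-16738646, minus strand: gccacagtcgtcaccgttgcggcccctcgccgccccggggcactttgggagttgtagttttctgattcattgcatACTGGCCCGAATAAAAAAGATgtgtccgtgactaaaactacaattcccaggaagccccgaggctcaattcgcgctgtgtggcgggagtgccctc

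The summits marked in the SOX1 sequence are those of MYT1L replicates 2 and 4, the one in SOX5 that of replicate 4, and the one in SOX6 that of replicate 3. The share of G and C was 82.0% in the SOX1 stretch, 75.8% in SOX5 and 56.8% in SOX6. In the full 300-base windows of these promoters it was 80%, 63.7% and 60%. Each was above the median of 58.7% over the windows of all 35116 promoters. The 3 stretches held 31, 12 and 12 CpG dinucleotides. The core AAGTT, searched on both strands, occurred in none of the 3 stretches, which says only that these letters are not there. The stretches leave out gene bodies. The full SOX1 window held 1 core inside the gene, at chr13:112067187-112067191, 38 bases past the start site. The peak of replicate 4 (112066879 to 112067398) covered that core, and the peak of replicate 2 (112066962 to 112067154) did not. In the full 300-base windows AAGTT occurred in 8 of the 10 promoters listed for the 6 members, against 34.0% of all promoters. SOX6 has 5 of the 10. Of the 8, only the windows of SOX1 and SOX4 were overlapped by a MYT1L peak. The SOX5 and SOX6 windows printed above, each overlapped by peaks of 3 libraries, held no AAGTT. The other SOX6 windows all held it, had no peak and had 29.7% to 41.7% G and C. The longer AAAGTT, which contains the core, was in 5 of the 10 and in 12.7% of all. AAAGTTT, which contains both, was in 1 and in 4.28% of all. That 1 match was in the SOX4 promoter at chr6:21593554-21593560 on the plus strand, 197 bases before the start site, within the stretch tttaaAAAGTTTgctct (the match in capitals). No MYT1L peak covered it, the nearest beginning at position 21593684. The remaining 4 members have no entry in the promoter table.

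**Figure D1:**
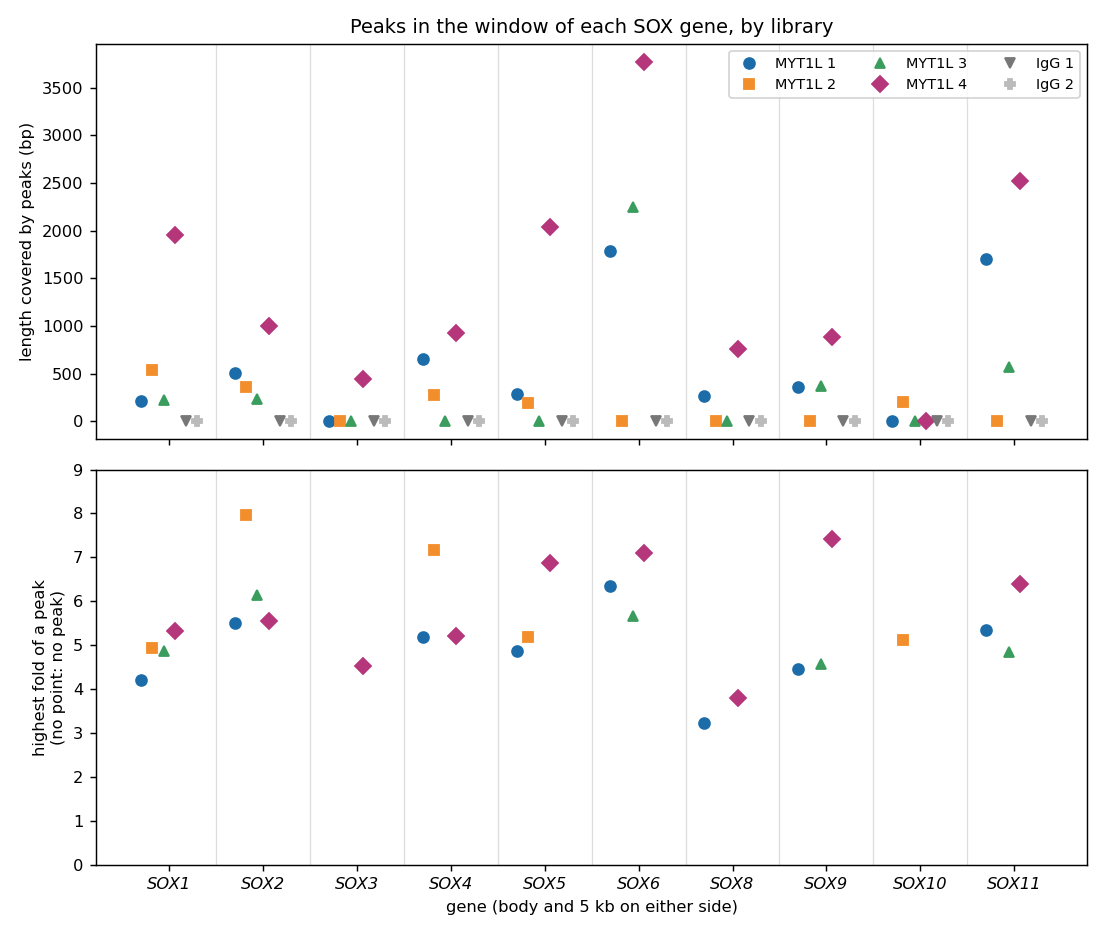
Values of each library for the 10 SOX genes, with the length covered by peaks in the window (bp) above and the highest fold of a peak below. Each point is 1 library, and a missing point below means no peak. MYT1L replicate 4 covered the most sequence at every gene except SOX10, and both IgG libraries lie at 0 throughout.

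The B1 genes were occupied unequally. SOX1, on chromosome 13 from 112067149 to 112071706, lies inside the long noncoding gene SOX1-OT. Its peaks covered 212, 538, 218 and 1953 bp in MYT1L replicates 1 to 4 and 0 bp in both IgG libraries. Every MYT1L library was above every IgG library, which among the 10 genes held for SOX1 and SOX2 and among all genes for 32.2%, with MYT1L replicate 4 far above the other 3. The mean was 730 ± 829 bp (SD, n = 4), and the difference from IgG had p = 0.133 in an exact permutation test, two-sided, the smallest this design allows (adjusted p = 0.414 over all genes).

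The reproducible region of SOX1 (112072391 to 112073302) was the only one of the 7 found in all 4 libraries, a count that 25.3% of all genes reached. It lies downstream of the gene, its summits 771 to 1205 bp past the gene end, within SOX1-OT. Its fold, the authors' ratio of the peak over local background, was 4.20, 4.63, 4.87 and 5.14 in replicates 1 to 4 (mean 4.71 ± 0.399, SD, n = 4). The 4 values were close, but the peaks were not in register. The summits spread over 434 bp, and the peak of replicate 1 (112072391 to 112072602) overlapped that of replicate 4 only, so the region is a chain of overlaps. With libraries joined by summits within 200 bp, the region remained in 3 of them. A second region spanned the start of SOX1 (112066879 to 112067398) in replicates 2 (fold 4.94) and 4 (fold 5.32), its summits 160 and 96 bases before the start in the sequence shown above.

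SOX2, on chromosome 3 from 181711925 to 181714436, is the best known of the group, a factor of both pluripotent cells and neural progenitors, and lies inside the noncoding gene SOX2-OT. Its peaks covered 509, 355, 230 and 1001 bp in MYT1L replicates 1 to 4 and 0 bp in both IgG libraries. All 4 MYT1L libraries were above both IgG libraries, with replicate 4 highest (mean 524 ± 338 bp, SD, n = 4, exact permutation test, two-sided, p = 0.133, adjusted p = 0.414). The reproducible region lay within the gene body, from 181712283 to 181713285. Its fold was 5.50, 7.96 and 5.54 in replicates 1, 2 and 4 (6.33 ± 1.41, SD, n = 3). The value of replicate 2 exceeded that of 91.5% of the peaks in its own list, and those of replicates 1 and 4 exceeded 68.8% and 49.96%. Replicate 3 had no peak there. Its single peak at SOX2 (fold 6.15) lay at 181710883 to 181711112, 937 bp before the start at its summit, where the other libraries had none. SOX2 was also 1 of the 2 genes that kept a reproducible region with peaks of a −log10 q of at least 5.

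SOX3, on the X chromosome from 140502985 to 140505069, is the third B1 gene and had 1 peak, in replicate 4 (140503815 to 140504255, within the gene, fold 4.53). Its covered length was 0, 0, 0 and 441 bp in replicates 1 to 4, so 3 of the MYT1L libraries were at 0 as both IgG libraries were. The nearest reproducible region outside its window was 218 kb away, near the noncoding gene LINC00632, and was held by all 4 libraries (fold 7.13 ± 0.813, SD, n = 4).

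**Figure D2:**
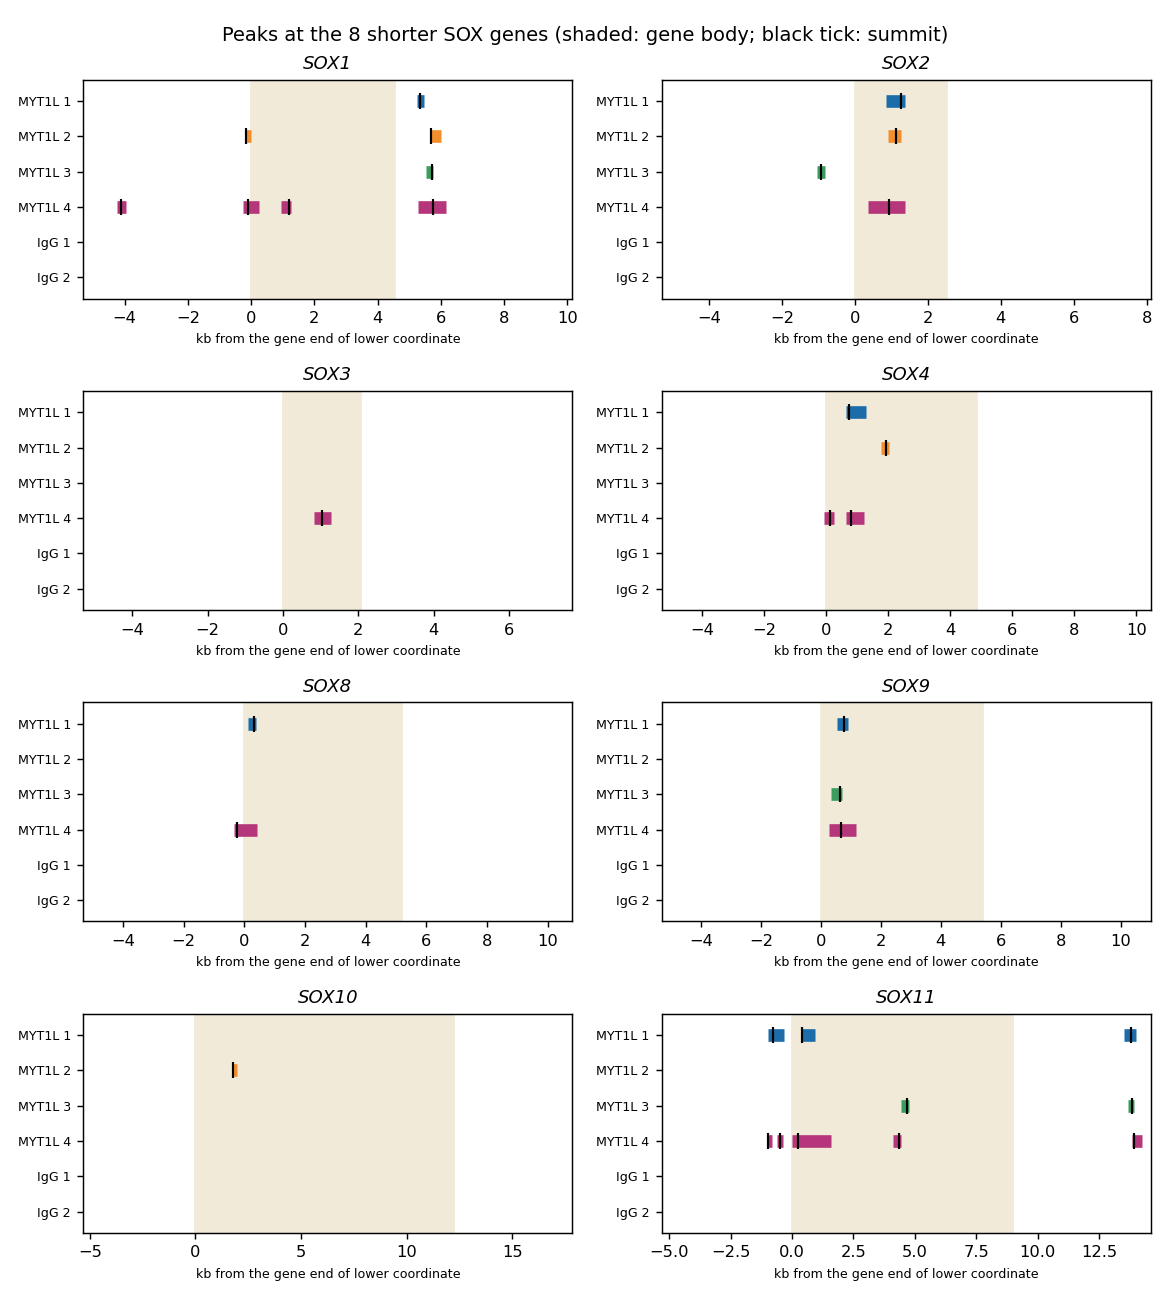
Position of every peak at the 8 SOX genes other than SOX5 and SOX6, in kb from the gene end of lower coordinate, with 1 row per library, the gene body shaded and summits as black ticks. Summits at SOX2, SOX3, SOX4, SOX8, SOX9 and SOX10 lay within 2 kb of that end, those at SOX1 and SOX11 were spread more widely, and the IgG rows are empty.

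The C genes share a role in newborn neurons. SOX4, on chromosome 6 from 21593751 to 21598619, had covered lengths of 648, 273, 0 and 927 bp in replicates 1 to 4 and 0 bp in both IgG libraries. Replicate 3 was the exception, with no peak. Replicates 1 and 4 shared a region inside the gene (21594374 to 21595021, folds 5.19 and 5.20) with summits 48 bp apart. The peak of replicate 2 lay about 1 kb further along (21595509 to 21595781) and had a fold of 7.16, above 85.3% of the peaks in its list. SOX4 was therefore occupied in 3 libraries without having a region that 3 libraries shared. The nearest reproducible region outside the window was 971 kb away, the largest such distance among the 10 genes.

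SOX11, on chromosome 2 from 5692384 to 5701385, held the peak with the highest −log10 q and pileup of the 10 genes, though not the highest fold. Its covered lengths were 1707, 0, 571 and 2525 bp in replicates 1 to 4 and 0 bp in IgG, with replicate 2, the shallowest MYT1L library, at 0. In replicate 4 a peak from 5692392 to 5693967 began 8 bp inside the gene end of lower coordinate. Its −log10 q of 31.3 was above that of 94.7% of its list, while its fold of 6.38 was above 62.6%. The same region in replicate 1 was weak (fold 3.46, above 4.12% of its list), and replicates 2 and 3 had no peak there. At the depth of replicate 2, that peak of replicate 4 had an expected chance of 0.999995 of being called. For the remaining SOX11 peaks this chance was 0.197 to 0.613. Regions just outside that end (5691385 to 5692040, replicates 1 and 4) and within the gene (5696476 to 5697157, replicates 3 and 4) had 2 libraries each. The reproducible region of SOX11 was a different one, at the far side (5705896 to 5706624) with summits 4814 to 4911 bp past the gene end. Its folds of 5.34, 4.86 and 5.86 in replicates 1, 3 and 4 averaged 5.35 ± 0.501 (SD, n = 3). It straddles the edge of the 5 kb window, and SOX11 had no reproducible region with a window of 1 kb, nor where peaks had to share at least 50% of the shorter one.

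The D genes are the long members, at 1033 kb (SOX5) and 772 kb (SOX6). SOX5, on chromosome 12 from 23529504 to 24562650, had 5 regions. Its covered lengths were 289, 187, 0 and 2037 bp in replicates 1 to 4 and 0 bp in IgG, replicate 4 standing well above the rest. The reproducible region lay at its 5′ end (24561785 to 24562859), with folds of 4.87, 5.19 and 5.98 in replicates 1, 2 and 4 (5.34 ± 0.568, SD, n = 3). The summits of replicates 1 and 2 were 1 bp apart (24562503 and 24562504) and 12 to 13 bp before the start site given by the promoter table, which lies inside the gene body. The remaining 4 regions were peaks of replicate 4 alone. Of those, 3 lay deep in the gene with folds of 4.75 to 6.86 and the fourth 558 bp outside the 5′ end (fold 6.21).

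SOX6, on chromosome 11 from 15966449 to 16738477, had 11 regions, the most of any member. Its covered lengths were 1791, 0, 2249 and 3771 bp in replicates 1 to 4 and 0 bp in IgG, with replicate 2 lacking any peak. Having 2 reproducible regions set it among the 7.79% of all genes, and 30.6% of those of 400 kb and longer, with at least 2. The first region lay at the 5′ end (16738253 to 16739058), with folds of 6.35, 5.36 and 7.10 in replicates 1, 3 and 4 (6.27 ± 0.870, SD, n = 3). This end faces the start of another protein-coding gene, C11orf58, which begins at 16738647 on the other side. The summits of replicates 1 and 4 (16738790 and 16738698) lay inside C11orf58, and that of replicate 3 (16738561) lay between the genes. The region covers both ends, so the peaks cannot be assigned to either gene. The second region was internal (16613579 to 16614345), its summits 124473 to 124754 bp from the 5′ end, and also overlapped the noncoding gene LOC105376571. Its folds of 5.81, 5.66 and 5.19 (5.55 ± 0.327, SD, n = 3) were nearly equal across replicates 1, 3 and 4. Another internal region (16495354 to 16495725) had summits only 3 bp apart in replicates 1 and 4 (folds 4.58 and 4.93).

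The most significant peak of SOX6 was held by 1 library alone. In replicate 4 the peak from 16606902 to 16607945 had a −log10 q of 21.9, above 86.4% of its list, and a pileup of 45 fragments, the number stacked at the summit. The deeper replicates 1 and 3 had no peak there. At the depth of replicate 2, the shallower one, a peak of this strength had an expected chance of 0.998 of being called. Per 100 kb of window, SOX6 had 1.41 regions and SOX5 0.479, beside a median of 0.849 over the 483 genes of 400 kb and longer. SOX6 was thus above 78.1% of these long genes and SOX5 above 22.98%.

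**Figure D3:**
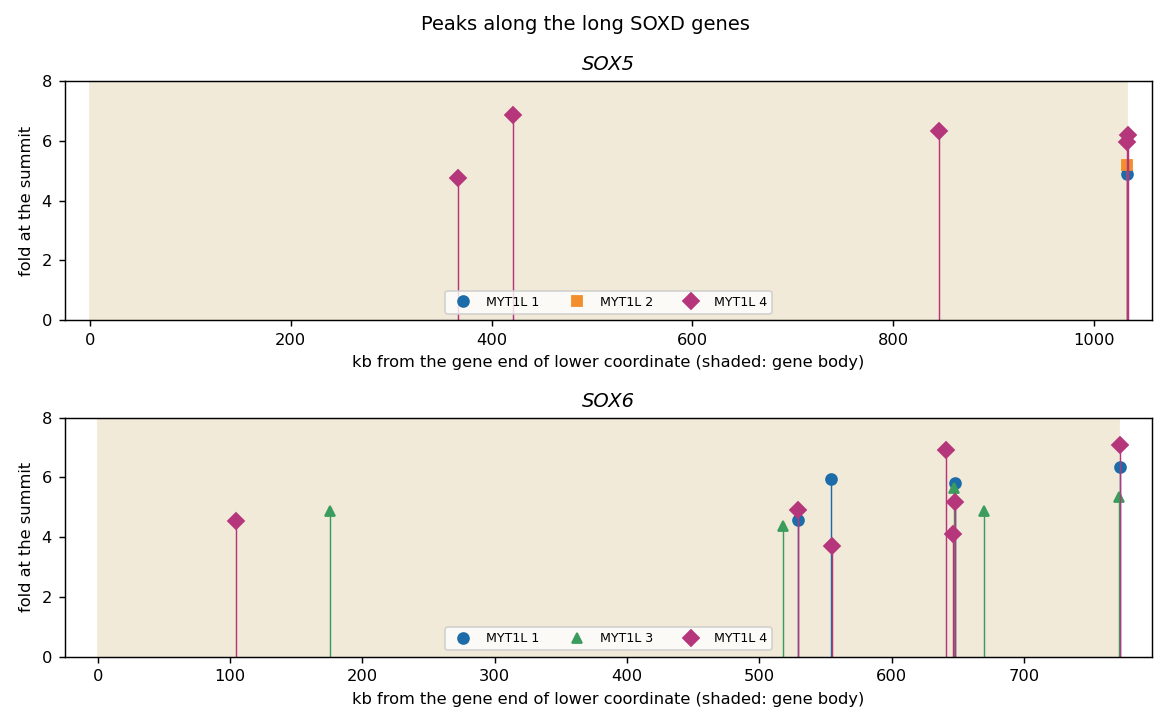
Peaks along SOX5 and SOX6, with the distance from the gene end of lower coordinate in kb on the x axis and the authors' fold at the summit on the y axis, 1 marker per peak. Both genes run right to left, so the cluster at the right edge of each is the 5′ end, where 3 libraries had a peak, and the peaks of SOX5 away from that end come from replicate 4 alone.

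The E genes act in glia and neural crest. SOX9, on chromosome 17 from 72121020 to 72126416, drives the switch of progenitors to glia. Its covered lengths were 355, 0, 372 and 879 bp in replicates 1 to 4 and 0 bp in IgG, replicate 2 being the one MYT1L library at the IgG level. Its only region was reproducible and lay inside the gene, 285 bp from the end of lower coordinate (72121305 to 72122183). The folds were 4.46, 4.57 and 7.42 in replicates 1, 3 and 4 (5.48 ± 1.68, SD, n = 3), and the 3 summits lay within 121 bp. The peak of replicate 4 was again the strong one, with a pileup of 38 fragments against 17 and 12 in replicates 1 and 3.

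SOX8, on chromosome 16 from 981770 to 986979, had a single region in 2 libraries (981432 to 982184), at the end of lower coordinate. Its folds, 3.23 in replicate 1 and 3.81 in replicate 4, were among the lowest of these libraries, above 2.09% and 7.66% of the peaks in their lists. The region also covers the ends of higher coordinate of LMF1 and of the noncoding gene CEROX1, both at 981613, so its peaks cannot be assigned to SOX8 alone. SOX10, on chromosome 22 from 37972312 to 37984555, is the regulator of oligodendrocytes and of the neural crest and lies inside the gene POLR2F. It had 1 peak, in replicate 2 (37974058 to 37974259, fold 5.12), and was the only member without a peak in replicate 4. The nearest reproducible region was 18.3 kb away, at POLR2F and C22orf23.

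The libraries contributed unequally. Replicates 1 to 4 had 13, 6, 10 and 27 peaks in the windows, at 8, 5, 5 and 9 of the 10 genes. A peak of the same library was in the window of 68.0%, 43.0%, 57.3% and 77.6% of all genes, so the order of the libraries at the SOX genes was nearly that of the genome. All 7 reproducible regions had a peak in replicates 1 and 4, 5 in replicate 3 and 3 in replicate 2. Over all reproducible regions, replicates 1 to 4 held 95.7%, 64.6%, 86.8% and 98.3%, so this order too was that of the genome. Of the 19 single-library regions, 12 came from replicate 4, whose list was the longest (30086 peaks). The SOX peaks were not strong ones by fold. Only 20 of the 56 exceeded the median fold of their own list, and the 7 reproducible regions had a median fold of 5.48 beside 6.29 over all 11091 reproducible regions without an IgG peak.

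The fold is relative to the background around each peak, and that local background differed among the SOX genes. It was recovered from each peak's fold and p-value and divided by the genome-wide background of the library. At the 8 shorter genes it exceeded the median over all peaks of the library for 29 of 33 peaks, and at SOX5 and SOX6 for 5 of 23. The highest values were at SOX11 in replicate 4, where it reached 11.5 times the genome-wide background under the peak of highest −log10 q, above 98.5% of the peaks in that list. At SOX11 the same ratio was at most 3.79 in replicate 1 and 2.07 in replicate 3. At SOX5 and SOX6, 10 of the 23 peaks sat on background at the genome-wide level. Over all peaks, the ratio was below 1.018 for 21.2% in replicate 1 and below 1.064 for 23.4% in replicate 3. In replicate 4 it was below 1.088 for 19.1%. The peak of SOX6 in replicate 4 at 16606902, by contrast, had a ratio of 6.32, above 95.7% of its list. Measured against the genome-wide background, that SOX11 peak was 38.0-fold rather than 6.38-fold, that SOX6 peak 24.3-fold rather than 6.91-fold and the SOX9 peak of replicate 4 20.6-fold rather than 7.42-fold. The control library of the peak calling is not given in the sources used here, so whether the local background was counted in the MYT1L library itself, peaks included, is not known.

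**Figure D4:**
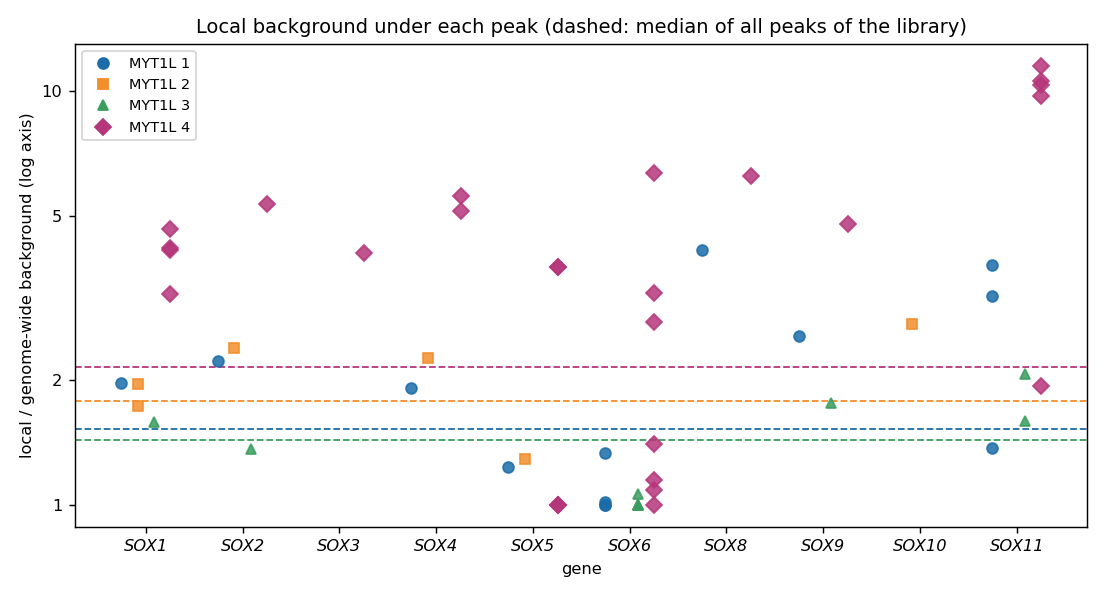
Local background under each MYT1L peak divided by the genome-wide background of its library (log axis), by gene, with the median over all peaks of each library dashed. Replicate 4 at SOX11 reaches 11.5, while many peaks at SOX5 and SOX6 lie at 1.

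The absence of IgG peaks was set against depth. With the fragments and local background of the MYT1L peaks at the SOX genes thinned to the depth of IgG replicate 1 and its lowest called p-value as the threshold, the number expected to be called was 1.34 of 13 in replicate 1, 3.98 of 6 in replicate 2, 1.198 of 10 in replicate 3 and 8.42 of 27 in replicate 4. At the depth of IgG replicate 2 these numbers were 0.714, 1.81, 0.641 and 4.58. Both controls had 0. Most peaks of replicates 1 and 3 would thus not have been detectable at the depth of a control, so the missing IgG peaks carry little weight for them. Single peaks were less limited by depth, with the highest chances at SOX11 and SOX2. The SOX11 peak of replicate 4 would have been called with a chance of 0.994 at the depth of IgG replicate 1 and 0.861 at that of IgG replicate 2. For the SOX2 peak of replicate 2 these chances were 0.981 and 0.663.

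Related genes outside the 10 were counted in the same way. Of 10 other SOX genes, 3 had a reproducible region (SOX15, SOX21 and SOX30) and none had one in all 4 libraries. Of 6 POU genes, whose proteins pair with SOX proteins on DNA, 2 had one (POU3F1 and POU3F2), both held by all 4 libraries. Both counts stand beside the 48.0% of all genes with a reproducible region and the 30.9% of genes under 10 kb, the length of most genes in both lists. A region in all 4 libraries was present at 25.3% of all genes.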

How the data were processed

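Each of the 6 libraries had 1 list of peaks in narrowPeak format without a header. Peaks were called with MACS2 on hg38, per the submitters' processing notes; the aligner, threshold and control library are not given in the sources used here. Each deposited peak carries a fold enrichment (a ratio), a deposited −log10 p, a −log10 q and a score, all computed per library by the authors; the score was not used. Groups and replicate numbers follow the titles of the samples, although the names of MYT1L peaks hold a sample number that is 1 above the title's.

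Coordinates were counted from 1, and peaks on chromosomes 1 to 22, X and Y were used. Peaks of the MYT1L libraries were joined by an overlap of at least 1 bp. Genes and their ends came from RefSeq GRCh38.p14, which names no exons in the tables used. Whole-number pileups were recovered from fold and p-value by the formulas of MACS within 0.0002, for 99.93% or more of each library's peaks with a −log10 p under 200. Relative depth is the ratio of genome-wide background to fragment length. Covered length was compared by exact permutation over 15 splits for all 20033 genes, with Benjamini-Hochberg adjustment. Regions, window counts and pileups were tested on simulated data with 0 differences. The simulated local backgrounds did not reach the highest one at the SOX genes (10.3 fragments, SOX11 in replicate 4). For every SOX peak the recovered −log10 p was within 1.83e-05 of the deposited one. The analysis used Python 3.11.15, numpy 2.4.6, pandas 2.3.3 and scipy 1.17.1.

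By rule, all 10 members are described, with every reproducible region (for a gene without one, the region with most libraries) and the promoters that peaks of at least 2 MYT1L libraries overlap; the members and lists were chosen with earlier results of these data known. Alternatives changed the number of libraries, the −log10 q minimum, equal numbers of top peaks, the overlap, the window, the IgG filter, each library left out and a replicate block. Some items of the lists are not reported here.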

Additional observations from a re-analysis of the deposited data

Results flagged for a closer look

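Among the 4 MYT1L libraries, 22 sets of values (covered length, number of peaks and highest fold of a gene) were examined for a library far from the other 3, and 6 had one. Chance gives about 1 in 20 such sets where values are not tied. In 5 of the 6 the other 3 values were tied, and the single peaks of SOX3 and SOX10 each count under length and number, so the 6 are not set against chance. At SOX3, replicate 4 alone had a peak (1 peak, 441 bp, with 0 in the other 3). At SOX10, replicate 2 alone had one (1 peak, 202 bp, with 0 in the other 3). At SOX5, replicate 4 covered 2037 bp against 289 bp in the next library. At SOX9, replicate 2 had 0 peaks and each of the other 3 had 1. The cause of these differences was not tested.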

How the results depend on the processing

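All alternatives were planned. The count of SOX genes with a reproducible region, 6, became 1 with all 4 libraries required (25.3% of all genes). It became 2 with a minimum −log10 q of 5 (30.6%) and 2 with equal numbers of top peaks (33.7%). In the other alternatives outside the replicate block it was 5 to 8. The share of all genes there ran from 37.7% (summits within 200 bp, 6 SOX genes) to 70.7% (window of 50 kb, 8 SOX genes). The number of reproducible regions, 7, became 14 with at least 2 libraries, 1 with all 4, 2 with that q minimum, 2 with equal numbers of top peaks and 11 with a window of 50 kb. Leaving out 1 library at a time gave 6 to 8 genes (48.7% to 63.3% of all genes) and 7 to 13 regions. The value of 13 came without MYT1L replicate 2 and without replicate 3, where SOX4 and SOX8 were added. Whenever a MYT1L library was left out, 2 of 3 libraries sufficed. A reproducible region could then be lost only where its peaks no longer overlapped. Leaving out an IgG library could only add regions. These counts could therefore hardly fall. The count of genes with every MYT1L above every IgG library, 2, became 1 with that q minimum (13.4% of all genes), 5 with a window of 50 kb (61.1%), 0 with equal numbers of top peaks (0.21%) and 2 to 5 with 1 library left out, 5 without MYT1L replicate 2 (49.1%) and 4 without replicate 3 (37.8%). The permutation test of covered length cannot pass 0.05 in this design. Replicate numbers 1 and 2 occur in both groups, but nothing in the labels pairs them, and the difference between replicates 1 and 2 correlated at 0.0409 between MYT1L and IgG over 834 genes. With the replicate block, 2 genes (SOX2 and SOX5, against 31.2% of all genes) and 2 regions were reproducible, and 4 genes had more covered length with MYT1L in both pairs (38.6% of all genes). Of 50 recomputed counts of reproducible regions of single genes, 36 stayed within 1.5 times and 14 did not. The 36 include SOX3 and SOX10, whose counts were 0 in every setting, and the settings without 1 library used the looser rule. Of 47 recomputed mean folds, 2 moved by more than the spread between libraries (SD), those of SOX1 and SOX5 with that q minimum. Leaving out 1 library cannot shift a mean by more than this SD. Those settings therefore could not show a move and say nothing about stability. SOX3 and SOX10, with 1 library each, have no spread. Depth limits what the IgG libraries can show.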
